A study of Mus musculus with 20 samples.

Results

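Trp53 and 9 genes known as targets of the p53 protein were followed in bone marrow CFU-E, the colony-forming progenitors committed to the red cell lineage, from mice with and without a mutation of the splicing factor Srsf2. The genes were Trp53, Mdm2, Ccng1, Cdkn1a, Zmat3, Phlda3, Trp53inp1, Eda2r, Ddb2 and Dglucy, chosen by name with earlier results of these data known. All 10 were found by their Ensembl gene IDs among the 37748 entries of the expression table. Eda2r did not reach a value of 1 in at least 5 of the 20 libraries, so 9 of the 10 were among the 10890 entries kept for the fit across genes. The study compared mice carrying Mx1-Cre and the Srsf2P95H/+ allele (called P95H below) with mice carrying Mx1-Cre alone. Each genotype received phenylhydrazine (PHZ), which lyses red cells and so forces the marrow to make new ones, or saline (PBS). Injections under the skin, of 30 mg/kg where PHZ was given, fell on day 0 and day 1, and cells were sorted on day 4. The 4 groups were P95H after PHZ, P95H after PBS, Mx1-Cre after PHZ and Mx1-Cre after PBS, with 5 RNA-seq libraries each, every library named with its own animal number. All 4 groups carry Mx1-Cre, a Cre recombinase driven by an interferon-inducible promoter that is active in most blood cells and in other tissues. The labels give no age, and they do not say when or how Cre was induced. The sort took CD105+ cells with high c-Kit that were lineage-negative and lacked CD150, CD16/32, CD41 and Sca-1.

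p53, encoded by Trp53, is a transcription factor that is held at a low protein level by the ubiquitin ligase Mdm2 and accumulates when DNA is damaged or ribosome assembly is disturbed. It then binds a pair of short, similar DNA motifs of 10 bases, called decamers, near its target genes and raises their transcription, which halts the cell cycle, promotes repair or leads to cell death. Because p53 activity is set mostly by protein stability, the Trp53 transcript itself is a poor measure of it, and the transcripts of the target genes are commonly read instead. In red cell progenitors, p53 activation is best known from anaemias with defective ribosome assembly.

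The promoter sequences of the listed genes are shown first because the listed targets differ in how much of a p53 motif they hold next to the transcription start. RefSeq promoters of the build GRCm38.p6 were at hand for 7 of the 10 genes, as windows from 250 bases before to 50 bases after the start, and Cdkn1a had 2 starts 2790 bases apart. Zmat3, Ddb2 and Trp53inp1 had none. Each window was searched for the p53 decamer consensus, which is its own reverse complement, so that both strands are read at once. Pairs of decamers separated by 0 to 13 bases were scored by their mismatches over the pair. The 250 bases before the start follow in lower case, read 5′ to 3′ along the strand of the gene, with the 2 decamers of the best pair in capitals. Positions are counted from the annotated start as base 0, so that -1 is the base before it.
Cdkn1a, upstream start, chr17:29090729-29090978 (+ strand): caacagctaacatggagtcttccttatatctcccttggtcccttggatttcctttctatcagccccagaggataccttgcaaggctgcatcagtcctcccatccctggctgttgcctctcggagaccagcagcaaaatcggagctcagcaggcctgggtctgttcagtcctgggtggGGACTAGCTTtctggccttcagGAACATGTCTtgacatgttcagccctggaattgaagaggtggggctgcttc
Ccng1, chr11:40755287-40755536 (- strand): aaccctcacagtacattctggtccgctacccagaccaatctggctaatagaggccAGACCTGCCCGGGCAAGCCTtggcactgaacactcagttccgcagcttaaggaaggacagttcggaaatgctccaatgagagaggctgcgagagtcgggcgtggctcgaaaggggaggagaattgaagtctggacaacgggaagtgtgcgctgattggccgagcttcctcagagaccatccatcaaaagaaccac
Phlda3, chr1:135765835-135766084 (+ strand): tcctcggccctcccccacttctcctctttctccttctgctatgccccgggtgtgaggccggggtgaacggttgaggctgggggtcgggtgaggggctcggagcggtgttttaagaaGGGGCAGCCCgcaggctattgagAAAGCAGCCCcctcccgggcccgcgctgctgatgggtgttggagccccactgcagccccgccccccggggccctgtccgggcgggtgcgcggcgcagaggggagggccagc
Dglucy, chr12:100778807-100779056 (+ strand): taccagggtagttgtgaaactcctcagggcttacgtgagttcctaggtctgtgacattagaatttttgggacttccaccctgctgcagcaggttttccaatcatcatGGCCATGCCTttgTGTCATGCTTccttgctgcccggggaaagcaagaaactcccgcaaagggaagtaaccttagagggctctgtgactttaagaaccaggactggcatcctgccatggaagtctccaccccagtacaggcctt
The window at the upstream start of Cdkn1a held a pair with 0 mismatches, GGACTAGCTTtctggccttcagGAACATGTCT, at -73 to -42 with 12 bases between the decamers. Its second decamer is also the first of an unbroken pair with 1 mismatch, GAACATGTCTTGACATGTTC, at -51 to -32. The window at the other start of Cdkn1a held no decamer, and its best pair had 5 mismatches. A pair with 0 mismatches occurred in 20 of the 27025 mouse genes with a window, which is 0.074%. Ccng1 held a pair with 1 mismatch and no bases between the decamers, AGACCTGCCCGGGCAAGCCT, at -195 to -176. Pairs with at most 1 mismatch occurred in 335 genes, 1.24% of those with a window. Phlda3 and Dglucy, which differed between the genotypes as described below, held no full decamer here, and their best pairs had 4 and 3 mismatches. Pairs with at most 3 mismatches occurred in 48.5% of genes, so the capitals in the Dglucy sequence mark a match that is common. Trp53 and Mdm2 held 1 decamer each, and Eda2r held none. In all, 4 of the 7 genes held at least 1 decamer, against 9.55% of all genes with a window. These matches describe letters in a window of 300 bases and were not tested for binding.

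The table gives a normalised expression signal per gene, described under the processing, that has the form of TPM values and is therefore comparable between genes per length. In Mx1-Cre CFU-E after PBS, Trp53 had the highest mean level of the 10 genes at 311 ± 14 (SD, n = 5). Ccng1 followed at 61.9 ± 2.28, Mdm2 at 29.4 ± 1.57 and Ddb2 at 12.5 ± 1.76 in the same libraries. Those 4 genes did not overlap in their ranges. The rest were low, with Zmat3 at 4.56 ± 0.788, Trp53inp1 at 3.49 ± 0.837, Phlda3 at 2.79 ± 0.534 and Dglucy at 2.52 ± 0.340. The ranges of neighbours among these low genes overlapped, and so did those of Cdkn1a (0.931 ± 0.463) and Eda2r (0.591 ± 0.139) at the bottom. No listed gene was at 0 in any library.

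**Figure D1:**
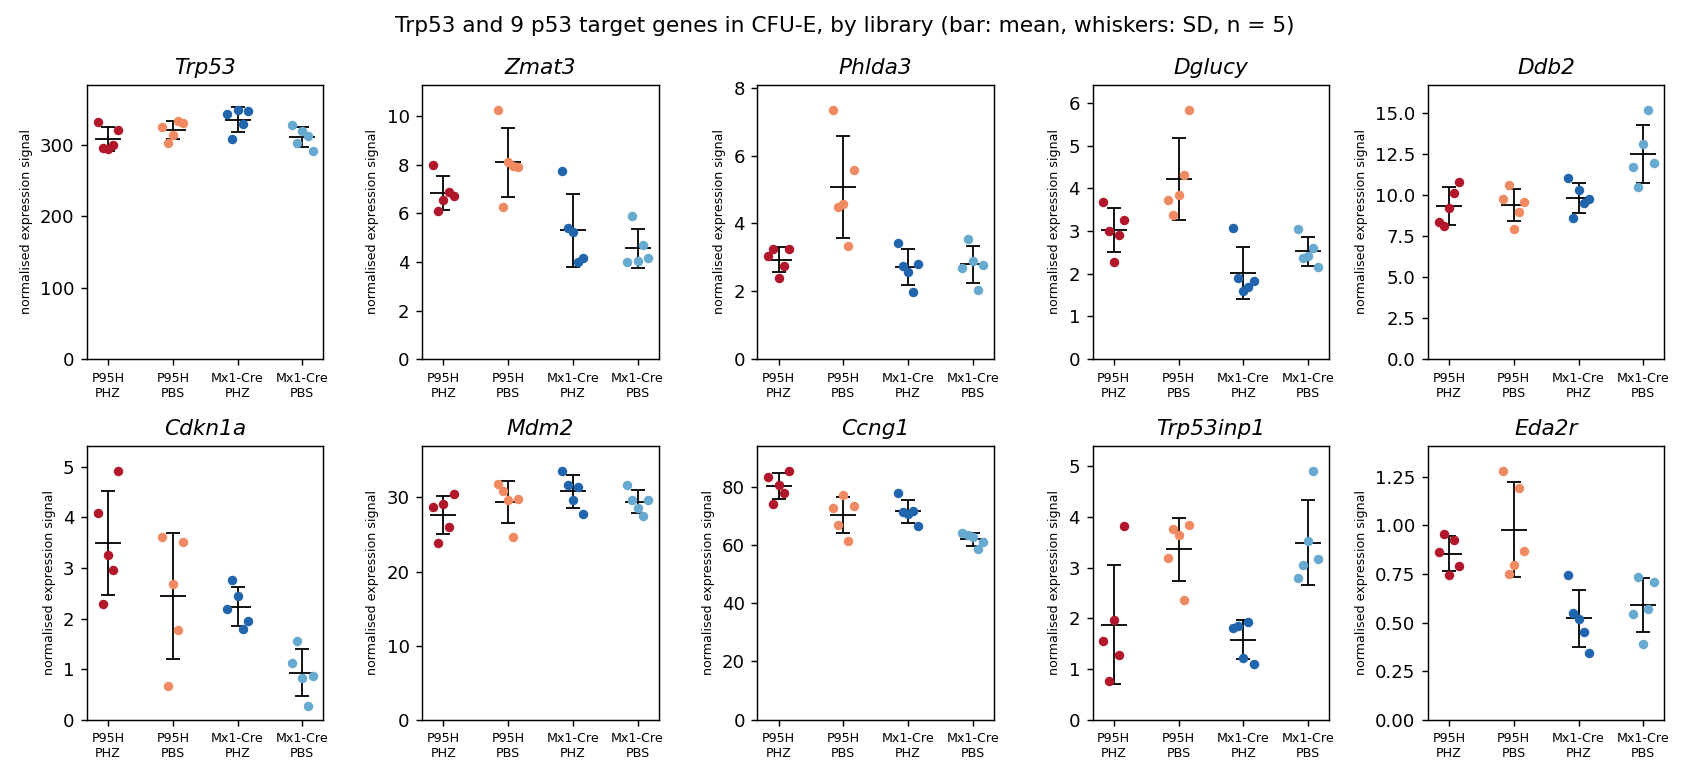
Normalised expression signal of Trp53 and 9 p53 target genes in each library (points), with the mean (bar) and SD (whiskers) of the 5 libraries of P95H after PHZ, P95H after PBS, Mx1-Cre after PHZ and Mx1-Cre after PBS. Zmat3, Dglucy and Eda2r lie higher in P95H than in Mx1-Cre under PBS with no overlap, whereas Trp53 and Mdm2 lie at about the same height in all 4 groups.

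In P95H CFU-E, 5 of the 9 listed genes tested rose and 1 fell when the genotype difference was averaged over both treatments. The genes that rose were Zmat3, Dglucy, Cdkn1a, Phlda3 and Ccng1, and the gene that fell was Ddb2. Of all 10890 genes, 10.5% were called in this comparison, 2.66% higher and 7.88% lower. A gene was called when its Benjamini-Hochberg adjusted p in limma, over all genes tested, was under 0.05. Fold changes are differences of log2(value + 1), a scale that makes the change of low genes look smaller. The log2 fold changes of the 5 genes that rose ran from 0.17 for Ccng1 to 0.62 for Cdkn1a, and that of Ddb2 was -0.22. Neither Trp53 nor its main antagonist Mdm2 was called. The 5 libraries of each group, 1 per mouse, stand behind each group mean. The limma p-values set differences between these means against a spread shared by all 20 libraries and moderated across genes.

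Trp53 itself had values of 332, 296, 294, 299 and 321 in P95H after PHZ and 324, 303, 313, 333 and 331 in P95H after PBS. In Mx1-Cre it had 343, 308, 349, 329 and 347 after PHZ and 327, 302, 320, 312 and 292 after PBS. All 20 libraries fell between 292 and 349, and the groups overlapped. The log2 fold change of P95H against Mx1-Cre averaged over both treatments was -0.04, with a 95% interval of -0.11 to 0.04 and an adjusted p of 0.553 in limma. After PHZ alone it was -0.12 (adjusted p = 0.161), and under PBS 0.05 (adjusted p = 0.71). PHZ against PBS gave -0.06 in P95H (adjusted p = 0.410) and 0.11 in Mx1-Cre (adjusted p = 0.0956). Without Mx1-Cre PHZ library 2, the adjusted p in Mx1-Cre was 0.0415.

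Mdm2, the ubiquitin ligase that is both a p53 target and the main inhibitor of p53, had 28.7, 23.9, 29.1, 26.0 and 30.5 in P95H after PHZ and 31.9, 30.9, 29.7, 24.6 and 29.8 in P95H after PBS. It had 33.6, 31.7, 29.6, 31.4 and 27.8 in Mx1-Cre after PHZ and 31.7, 29.6, 28.6, 27.5 and 29.7 in Mx1-Cre after PBS. The 4 groups overlapped. The averaged genotype difference was -0.08 on the log2 scale (95% interval -0.19 to 0.03, adjusted p = 0.331 in limma), and no contrast called Mdm2.

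Ccng1, which encodes cyclin G1 and recruits a phosphatase that acts on Mdm2, was the most abundant of the targets. It had 83.2, 74.0, 80.4, 77.9 and 85.5 in P95H after PHZ, against 77.6, 71.2, 70.5, 71.8 and 66.5 in Mx1-Cre after PHZ. Under PBS it had 72.7, 67, 77.0, 61.2 and 73.3 in P95H, against 64.2, 63.3, 62.8, 58.4 and 60.9 in Mx1-Cre. P95H libraries were mostly the higher ones under both treatments, with some overlap. The averaged difference was 0.17 (SE 0.0415), with an adjusted p of 0.0111 in limma, and it held when any 1 library was left out. PHZ raised Ccng1 in both genotypes, by 0.19 in P95H (adjusted p = 0.0174) and by 0.20 in Mx1-Cre (adjusted p = 0.0113). In Mx1-Cre every PHZ library lay above every PBS library, which 12.6% of all genes showed. The call in P95H was lost without P95H PBS library 4 (adjusted p = 0.0603).

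Cdkn1a encodes p21, the inhibitor of cyclin-dependent kinases through which p53 halts the cell cycle. It had 4.10, 2.28, 3.25, 2.96 and 4.93 in P95H after PHZ, against 2.2, 2.77, 2.46, 1.80 and 1.95 in Mx1-Cre after PHZ. Under PBS it had 3.62, 0.659, 2.68, 1.78 and 3.51 in P95H, against 1.12, 1.55, 0.831, 0.281 and 0.872 in Mx1-Cre. Under PBS, 4 of the 5 P95H libraries lay above all Mx1-Cre libraries, while P95H library 2 lay below 4 of the 5 Mx1-Cre values. The averaged genotype difference was 0.62 (SE 0.165, adjusted p = 0.0196 in limma), with the largest SE of the 6 calls. In group means, the P95H level was 2.63 times that of Mx1-Cre under PBS and 1.57 times after PHZ. Within single treatments it was not called, at 0.78 under PBS (adjusted p = 0.108) and 0.46 after PHZ (adjusted p = 0.261). Without P95H PBS library 2, the value under PBS was 1.02 and passed (adjusted p = 0.00740). In Mx1-Cre, PHZ raised Cdkn1a by 0.77 (SE 0.233, adjusted p = 0.0158), with every PHZ library above every PBS library, as for 12.6% of all genes. This call rested on Mx1-Cre PBS library 4, the lowest of all 20, without which the adjusted p was 0.0557. In P95H the PHZ value was 0.45 (95% interval -0.04 to 0.93, adjusted p = 0.154).

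Zmat3, an RNA-binding protein that p53 induces and that regulates splicing and stability of other transcripts, had the most stable genotype difference. Under PBS it had 10.3, 6.27, 8.13, 7.95 and 7.92 in P95H, against 4.00, 5.88, 4.04, 4.70 and 4.18 in Mx1-Cre. After PHZ it had 7.99, 6.10, 6.53, 6.90 and 6.73 in P95H, against 7.77, 5.39, 5.23, 4.00 and 4.17 in Mx1-Cre. Every P95H library lay above every Mx1-Cre library under PBS, and after PHZ only Mx1-Cre library 1 reached into the P95H range. The log2 fold change was 0.71 under PBS (SE 0.134, adjusted p = 0.00667) and 0.52 averaged over both treatments (SE 0.0948, adjusted p = 0.00112). In group means, P95H stood at 1.78 times the Mx1-Cre level under PBS and 1.29 times after PHZ. Both calls held when any 1 library was left out and in each of the other alternatives run. After PHZ alone the value was 0.34 (adjusted p = 0.139), and 0.47 (adjusted p = 0.0342) without Mx1-Cre PHZ library 1. PHZ against PBS was not called in either genotype.

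Phlda3, a small lipid-binding protein that competes with the kinase Akt for the membrane and so restrains it, was highest in P95H after PBS. It had 7.35, 4.49, 4.58, 3.33 and 5.59 in P95H after PBS, against 2.68, 3.53, 2.90, 2.04 and 2.79 in Mx1-Cre after PBS. After PHZ it had 3.05, 3.25, 2.39, 2.75 and 3.24 in P95H, against 3.44, 2.76, 2.56, 1.98 and 2.82 in Mx1-Cre. The P95H PBS libraries were the high ones, with 4 of 5 above all other 15 libraries. Phlda3 rose in P95H by 0.66 under PBS (SE 0.142, adjusted p = 0.0181) and by 0.37 averaged over both treatments (SE 0.10, adjusted p = 0.0190). The call under PBS was lost without P95H PBS library 5 (adjusted p = 0.0592) or Mx1-Cre PBS library 4 (adjusted p = 0.0551). After PHZ the genotype difference was 0.09 (95% interval -0.20 to 0.39, adjusted p = 0.760). In P95H, PHZ lowered Phlda3 by 0.60 (SE 0.142, adjusted p = 0.00302), with every PHZ library below every PBS library (17.6% of all genes had no overlap in either direction), and in Mx1-Cre the PHZ value was -0.03 (adjusted p = 0.894). The P95H PBS libraries enter every comparison that called Phlda3, the averaged one included. The PHZ effect in P95H minus that in Mx1-Cre was -0.56 (SE 0.201), which did not pass over all genes (adjusted p = 0.798).

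Trp53inp1, a stress protein that promotes autophagy and p53-dependent cell death, was called for PHZ in both genotypes and in no comparison between the genotypes. It had 1.55, 0.774, 1.97, 1.27 and 3.82 in P95H after PHZ, against 3.19, 3.76, 3.63, 2.36 and 3.85 in P95H after PBS. In Mx1-Cre it had 1.80, 1.84, 1.22, 1.92 and 1.09 after PHZ, against 2.79, 3.05, 3.53, 4.91 and 3.17 after PBS. All PHZ libraries lay below all PBS libraries in Mx1-Cre, as for 9.82% of all genes, and in P95H all but library 5 did. PHZ lowered it by 0.67 in P95H (SE 0.193, adjusted p = 0.0117) and by 0.80 in Mx1-Cre (SE 0.193, adjusted p = 0.00366). Both calls held when any 1 library was left out. The averaged genotype difference was 0.03, with a 95% interval of -0.26 to 0.31 (adjusted p = 0.931).

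Eda2r, a receptor of the tumour necrosis factor receptor family for the ligand ectodysplasin A2, was the lowest of the 10 genes and was compared by itself. Under PBS it had 1.28, 0.748, 0.798, 1.2 and 0.870 in P95H, against 0.546, 0.735, 0.390, 0.572 and 0.71 in Mx1-Cre. After PHZ it had 0.865, 0.953, 0.743, 0.924 and 0.790 in P95H, against 0.743, 0.550, 0.519, 0.450 and 0.344 in Mx1-Cre. P95H lay above Mx1-Cre with no overlap under PBS, as for 0.891% of the 10890 genes tested, which exclude Eda2r. After PHZ the lowest P95H and the highest Mx1-Cre library met at 0.743. The means were 0.978 ± 0.243 in P95H and 0.591 ± 0.139 in Mx1-Cre under PBS, a ratio of 1.66 (SD, n = 5 each). Exact two-sided permutation tests gave p = 0.00794 under PBS, the smallest that the 252 splits of 10 libraries can give, and p = 0.0159 after PHZ. Both were 0.0317 when adjusted over the 4 comparisons of Eda2r alone. These permutation tests were chosen after the values of Eda2r were seen. PHZ against PBS gave exact p = 0.341 in P95H and 0.460 in Mx1-Cre. In a fit with no filter on low values, the averaged genotype difference was 0.30 (SE 0.0616, adjusted p = 0.00602 in limma). The same limma fit called Eda2r neither under PBS (0.31, adjusted p = 0.126) nor after PHZ (0.29, adjusted p = 0.0667). The depth behind values this low is unknown.

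Ddb2 encodes a subunit of the complex that recognises ultraviolet damage in nucleotide excision repair, and it was the listed gene that fell in P95H. Under PBS it had 9.73, 10.6, 7.94, 8.97 and 9.59 in P95H, against 11.7, 10.5, 13.1, 15.2 and 12 in Mx1-Cre. After PHZ it had 8.36, 8.12, 9.18, 10.1 and 10.8 in P95H, against 11.0, 8.57, 10.3, 9.52 and 9.72 in Mx1-Cre. The Mx1-Cre PBS libraries were the high ones, and the other 3 groups overlapped widely. Ddb2 fell by 0.38 in P95H under PBS (SE 0.0951, adjusted p = 0.0491) and by 0.22 averaged over both treatments (SE 0.0673, adjusted p = 0.0347). The call under PBS was lost in 15 of the 20 fits that left out 1 library, with adjusted p up to 0.131, and in 10 of 14 other alternatives. Of the fits that left out 1 library, those without P95H PHZ library 2 or 5, P95H PBS library 2, Mx1-Cre PHZ library 2 or Mx1-Cre PBS library 2 kept it. The averaged call was lost in 9 of 20 such fits (adjusted p up to 0.0683), those without P95H PHZ library 1, 2 or 3, P95H PBS library 3 or 4, Mx1-Cre PHZ library 1 or 3, or Mx1-Cre PBS library 3 or 4. PHZ lowered Ddb2 by 0.31 in Mx1-Cre (adjusted p = 0.0159, and 0.0611 without Mx1-Cre PBS library 4), and the value in P95H was -0.01 (adjusted p = 0.959). The Mx1-Cre PBS libraries enter every comparison that called Ddb2, the averaged one included. Ddb2 overlaps Acp2 on the opposite strand by 2527 bases, Acp2 had values of 10.9 to 15.4, and no source used here says whether the counting used strand, so the Ddb2 values are uncertain.

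Dglucy encodes D-glutamate cyclase, a mitochondrial enzyme of D-glutamate breakdown. Under PBS it had 3.73, 3.38, 3.84, 4.31 and 5.84 in P95H, against 3.06, 2.38, 2.42, 2.61 and 2.15 in Mx1-Cre. After PHZ it had 3.69, 3.00, 2.27, 2.91 and 3.26 in P95H, against 3.07, 1.89, 1.59, 1.68 and 1.82 in Mx1-Cre. P95H lay above Mx1-Cre with no overlap under PBS, and after PHZ Mx1-Cre library 1 alone reached into the P95H range. Dglucy rose in P95H by 0.49 averaged over both treatments (SE 0.0924, adjusted p = 0.00159), and this held when any 1 library was left out. The mean level in P95H was 1.67 times that in Mx1-Cre under PBS and 1.51 times after PHZ. Under PBS the value was 0.55 (SE 0.131, adjusted p = 0.0330), a call lost in 7 of 20 fits (adjusted p up to 0.107), those without P95H PBS library 3, 4 or 5 or Mx1-Cre PBS library 2, 3, 4 or 5. After PHZ it was 0.43 (adjusted p = 0.0565), and it passed without P95H PHZ library 3, P95H PBS library 5 or Mx1-Cre PHZ library 1, the lowest adjusted p being 0.0152. PHZ lowered Dglucy in P95H by 0.37 (adjusted p = 0.0380), a call lost without P95H PHZ library 2, 3 or 4 or P95H PBS library 4 or 5 (adjusted p up to 0.131). In Mx1-Cre the PHZ value was -0.24 (adjusted p = 0.168), and 0.0311 was the adjusted p without Mx1-Cre PHZ library 1.

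**Figure D2:**
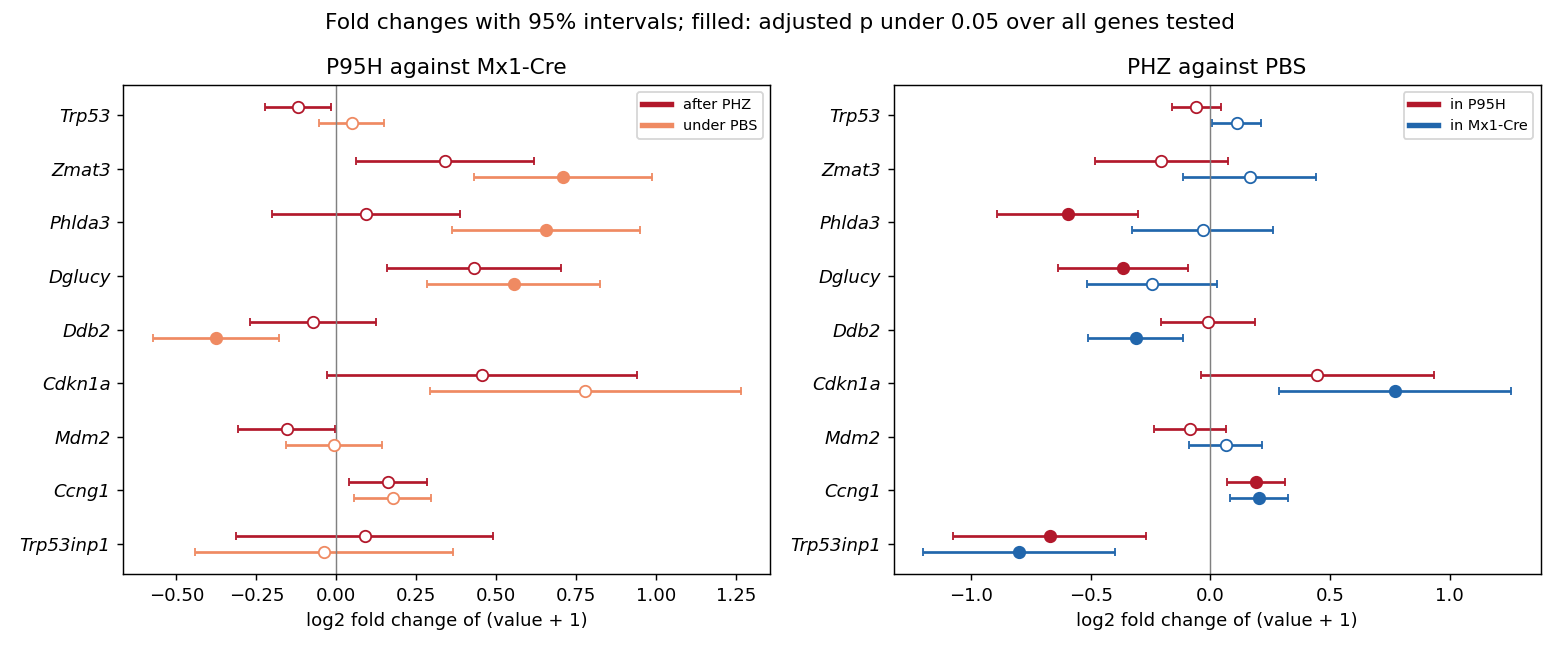
Log2 fold changes of the 9 tested genes with 95% intervals, P95H against Mx1-Cre (left, after PHZ and under PBS) and PHZ against PBS (right, in P95H and in Mx1-Cre), with filled points where the adjusted p was under 0.05. Zmat3, Phlda3, Dglucy and Ddb2 are filled under PBS on the left and none after PHZ, and Trp53inp1 and Ccng1 are filled for both genotypes on the right.

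Within single treatments, the genotypes differed at 4 of the 9 genes under PBS, with Zmat3, Phlda3 and Dglucy higher and Ddb2 lower in P95H. Of all genes, 1.48% were called under PBS, 0.358% higher and 1.12% lower. After PHZ, 0 of the 9 genes were called by limma, with 5 at an unadjusted p under 0.05, where 5.47% of all genes were called, 1.1% higher and 4.37% lower, and 21.5% had an unadjusted p under 0.05. Those 5 were Trp53 and Mdm2 with negative values and Zmat3, Ccng1 and Dglucy with positive ones. The lower number of listed genes called after PHZ is not a tested difference. Subtracting the PHZ effect in Mx1-Cre from that in P95H called 0 of the 9 genes and 0 of all 10890 in limma, of which 577 (5.3%) had an unadjusted p under 0.05. Among the listed genes, Phlda3 (-0.56), Trp53 (-0.17) and Ddb2 (0.30) had an unadjusted p under 0.05 for that difference, and each had an adjusted p of 0.798 in limma. Groups did not overlap under PBS for Zmat3 and Dglucy, both higher in P95H, which 0.891% of all genes showed in that direction.

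PHZ changed 4 of the 9 genes in each genotype. In P95H, Ccng1 rose and Phlda3, Trp53inp1 and Dglucy fell, where 12.6% of all genes rose and 17.7% fell. In Mx1-Cre, Cdkn1a and Ccng1 rose and Trp53inp1 and Ddb2 fell, where 17.0% of all genes rose and 14.9% fell. Of the 4 calls in P95H, Phlda3 and Trp53inp1 held when any 1 library was left out, and of the 4 in Mx1-Cre, Ccng1 and Trp53inp1 did. In either direction, 30.2% of all genes were called in P95H and 31.9% in Mx1-Cre, so PHZ changed many genes outside the list as well.

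Of 74 other genes of the p53 pathway, 73 were found and 56 passed the filter. Averaged over both treatments, 3 rose and 5 fell in P95H, which is 14.3% of the 56, beside 10.5% of all genes. Those that rose were Ptp4a3, a phosphatase of proliferating cells (0.17, SE 0.0476, adjusted p = 0.0251), Dcxr, a carbonyl-reducing enzyme (0.24, SE 0.0695, adjusted p = 0.0313), and Bloc1s2, a subunit of a lysosome-related complex (0.16, SE 0.0515, adjusted p = 0.0466). Those that fell were Atr and Chek2, kinases of the DNA damage checkpoint, Usp7, a deubiquitinase of Mdm2 and p53, and the excision repair genes Xpc and Ercc5. Atr averaged 28.8 ± 3.53 in P95H after PHZ and 27.1 ± 1.84 in P95H after PBS, against 33.6 ± 2.53 in Mx1-Cre after PHZ and 31.3 ± 1.64 in Mx1-Cre after PBS (SD, n = 5 each). It fell by 0.21 in P95H (SE 0.0512, adjusted p = 0.0106 in limma). Usp7 fell by 0.16 (SE 0.0432, adjusted p = 0.0203). Of these 8, Atr and Usp7 kept their call when any 1 library was left out, and the others lost it in between 1 (Ptp4a3) and 17 (Ercc5) of the 20 fits. Under PBS and after PHZ singly, 0 of the 56 were called by limma. Of all genes, 1.48% were called under PBS and 5.47% after PHZ, so these counts are near the background.

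Among the 41 tested targets other than the listed ones, 3 rose and 2 fell in P95H (12.2%, beside 10.5% of all genes), with a median log2 fold change of -0.01. The 8 tested listed targets had a median of 0.27, and all genes tested had a median of -0.04. All the lists were chosen with earlier results of these data known, and such a choice can by itself set medians apart. The difference between them was not tested. By role, 1 of 10 tested genes of cell cycle arrest rose, none of 6 of cell death was called, 2 of 8 of DNA repair fell, and 1 of 10 of metabolism and 1 of 8 of other roles rose. The death genes below the filter included Pmaip1, Fas, Tnfrsf10b, Perp, Dram1 and Epha2. Also below it were Plk2, Trp53cor1, Tigar, Ephx1, Plxnb2, D630023F18Rik, Tgfa and Notch1, and among the regulators Cdkn2a, Trp63 and Trp73.

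**Figure D3:**
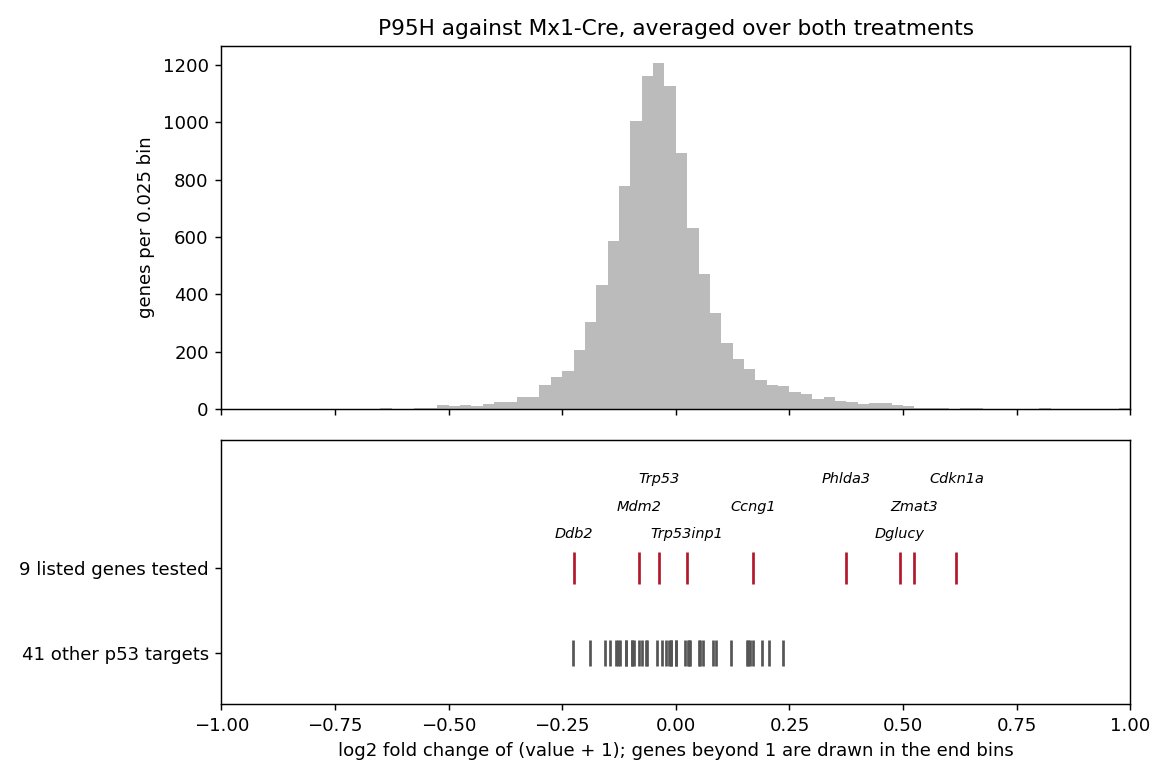
Log2 fold changes of P95H against Mx1-Cre averaged over both treatments, as a histogram of all 10890 genes tested (top) and as ticks for the 9 listed genes and 41 other p53 targets (bottom). Cdkn1a (0.62), Zmat3 (0.52), Dglucy (0.49) and Phlda3 (0.37) lie in the right tail of the histogram, while the other targets centre on -0.01.

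PHZ changed other pathway genes about as often as genes in general. In P95H, 5 of the 56 rose and 11 fell (28.6%, beside 30.2% of all genes), and in Mx1-Cre 8 rose and 10 fell (32.1%, beside 31.9%), so these counts are near the background. The genes that rose in P95H were Slc19a2, Rpl5, Usp7, Ptp4a3 and Hipk2, a kinase that phosphorylates p53, and all 5 also rose in Mx1-Cre. Tap1, a peptide transporter of antigen presentation, fell most, to 24.9 ± 2.91 in P95H after PHZ against 73.9 ± 29.8 in P95H after PBS, and to 26.5 ± 3.44 in Mx1-Cre after PHZ against 62.6 ± 13 in Mx1-Cre after PBS (SD, n = 5 each). Its log2 fold changes were -1.46 in P95H (adjusted p = 9.28e-06 in limma) and -1.19 in Mx1-Cre (adjusted p = 9.37e-05). Rchy1, a ubiquitin ligase that acts on p53, fell by 0.28 in P95H (adjusted p = 0.00172) and by 0.28 in Mx1-Cre (adjusted p = 0.00184). Gadd45a, a stress gene of arrest and repair, fell by 0.24 in P95H (adjusted p = 0.00678) and by 0.19 in Mx1-Cre (adjusted p = 0.0257). Slc19a2, a thiamine transporter, rose by 0.30 in P95H (adjusted p = 0.00633) and by 0.47 in Mx1-Cre (adjusted p = 0.000168). Abhd4, a lipase, fell by 0.36 in P95H (adjusted p = 0.00141) and by 0.38 in Mx1-Cre (adjusted p = 0.000933). Pank1, a kinase of coenzyme A synthesis, fell by 0.44 in P95H (adjusted p = 0.000142) and by 0.21 in Mx1-Cre (adjusted p = 0.0354). Sesn2, an inhibitor of mTORC1, fell by 0.42 in P95H (adjusted p = 0.000990) and by 0.25 in Mx1-Cre (adjusted p = 0.0315). Crip2, a LIM-domain protein, rose by 0.39 in Mx1-Cre (adjusted p = 0.00130). Free Rpl5 and Rpl11, proteins of the large ribosomal subunit, bind Mdm2. Rpl11 fell by 0.29 in P95H (adjusted p = 0.00104), and Rpl5 rose by 0.24 in P95H (adjusted p = 0.0332) and by 0.36 in Mx1-Cre (adjusted p = 0.00203). Among the genes named here, the calls of Tap1, Rchy1, Slc19a2, Abhd4 and Hipk2 held in both genotypes when any 1 library was left out. So did the calls of Gadd45a, Pank1, Sesn2 and Rpl11 in P95H, and of Crip2, Rpl5 and Usp7 in Mx1-Cre. Those of Rpl5, Usp7 and Ptp4a3 in P95H were lost in 5, 7 and 6 of the 20 fits, and those of Gadd45a, Pank1, Sesn2 and Ptp4a3 in Mx1-Cre in 4, 5, 6 and 9. Calls of Pcna and Rps27l in P95H, both lower, were lost in 3 and 12 of the 20 fits, and the call of Aen in Mx1-Cre, higher, in 4.

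Markers of other blood cells were present and moved with the groups. The 9 erythroid markers were detected in all groups, with a summed signal between 2605 and 4456 in every library, and none was called between the genotypes. The genotype comparisons called 1.48% of all genes under PBS, 5.47% after PHZ and 10.5% averaged over both treatments. None among 9 is therefore near the background. PHZ raised Tfrc and Rhag in both genotypes and lowered Kit and Eng in both, and Klf1 and Gata1 fell in P95H. The log2 fold changes of Tfrc, the transferrin receptor, were 0.75 in P95H and 0.89 in Mx1-Cre, and those of Kit, the receptor used in the sort, -0.77 and -0.80. All 18 granulocyte and monocyte markers were found and none was at 0 throughout a group. Their summed signal had a median of 378 (range 156 to 585) in P95H after PHZ and 1382 (545 to 2401) in P95H after PBS, against 192 (148 to 1055) in Mx1-Cre after PHZ and 612 (443 to 934) in Mx1-Cre after PBS. PHZ lowered 15 of the 16 that passed the filter in P95H, where 17.7% of all genes were called lower. In Mx1-Cre it lowered 1 of 16, Ms4a3, where 14.9% were. The median log2 fold change of the 16 for PHZ was -1.84 in P95H and -0.92 in Mx1-Cre, with 0 positive values in Mx1-Cre. For the difference between these PHZ effects none was called, as for all genes tested, nor was any in P95H against Mx1-Cre. In that genotype comparison all 16 were positive under PBS (median 0.85) and 10 after PHZ (median 0.03). Megakaryocyte markers summed to 3.29 to 11.9, lymphoid markers to 0.274 to 22.6, basophil and mast cell markers to 0.413 to 1.98, and stem and early progenitor markers to 1.18 to 3.32. The last 2 lists had no gene above the filter, and the first 2 had 2 each. PHZ lowered the platelet gene Gp9 in both genotypes and Itga2b in Mx1-Cre, and the B-lineage gene Cd79a in both genotypes and Igll1 in P95H. No lymphoid gene reached 1 in a PHZ library, where the list summed to at most 0.587 in P95H and 0.832 in Mx1-Cre. Cd79a and Igll1 therefore passed the filter through PBS libraries alone, which by itself favours a fall under PHZ. Between genotypes, Gp9 was called higher in P95H after PHZ (0.54, adjusted p = 0.0399 in limma) and in the averaged comparison (0.36, adjusted p = 0.0316). The part of the erythroid, megakaryocyte and lymphoid markers in the results was not tested. In bulk RNA, fewer cells of a type and less RNA per cell cannot be told apart. With the mean log2 level of these myeloid markers as a covariate, the averaged genotype calls of Zmat3 (0.57), Dglucy (0.48), Phlda3 (0.43) and Ccng1 (0.18) held, with adjusted p between 0.00135 and 0.0142. Those of Cdkn1a (0.56, adjusted p = 0.0531) and Ddb2 (-0.22, adjusted p = 0.0605) were lost, with values close to those without the covariate. The marker level was highest in P95H PBS libraries 4 and 5. Without both, the same 4 genes held, and Cdkn1a (0.57, adjusted p = 0.0545) and Ddb2 (-0.22, adjusted p = 0.0798) again lost their calls at about the same values. The number of other pathway genes called for PHZ was 3 in P95H and 11 in Mx1-Cre with the covariate, while the share of all genes called was 9.41% in P95H and 22% in Mx1-Cre. Under PBS, Zmat3 and Phlda3 held in both alternatives and Dglucy and Ddb2 did not. Under PHZ in P95H, Phlda3 held in both, Trp53inp1 was lost with the covariate (-0.54, adjusted p = 0.247) but not without those 2 libraries (-0.74), and Ccng1 and Dglucy were lost in both. Ccng1 then had 0.15 in both alternatives, and Dglucy -0.30 with the covariate and -0.22 without the 2 libraries.

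Srsf2, the gene that carries the mutation, had 564 to 610 in P95H after PHZ and 563 to 693 in P95H after PBS, against 631 to 727 in Mx1-Cre after PHZ and 646 to 727 in Mx1-Cre after PBS. The mutant allele cannot be read from values per gene.

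Within groups, the listed genes tended to deviate in the same libraries. Over the 20 libraries, with each group's mean removed, 30 of the 36 pairs among the 9 tested genes had a positive Pearson r, with a median of 0.29. The closest pair was Mdm2 and Ccng1 (r = 0.82), followed by Cdkn1a and Ccng1 (0.64) and Mdm2 and Trp53inp1 (0.60). Phlda3 and Cdkn1a reached 0.57 and Zmat3 and Phlda3 0.55. Ddb2 and Cdkn1a had the lowest value, -0.32. Trp53 was closest to Dglucy (0.55) and had -0.01 with Mdm2. All pairs share the same 20 libraries and their scaling factors, so these are descriptions. No background of pairs among other genes is given beside them, so a likeness particular to the listed genes was not tested. Mx1-Cre PHZ library 1 had the highest value of its group for 7 of the 10 genes, and P95H PBS library 1 and P95H PHZ library 5 for 5 and 5.

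**Figure D4:**
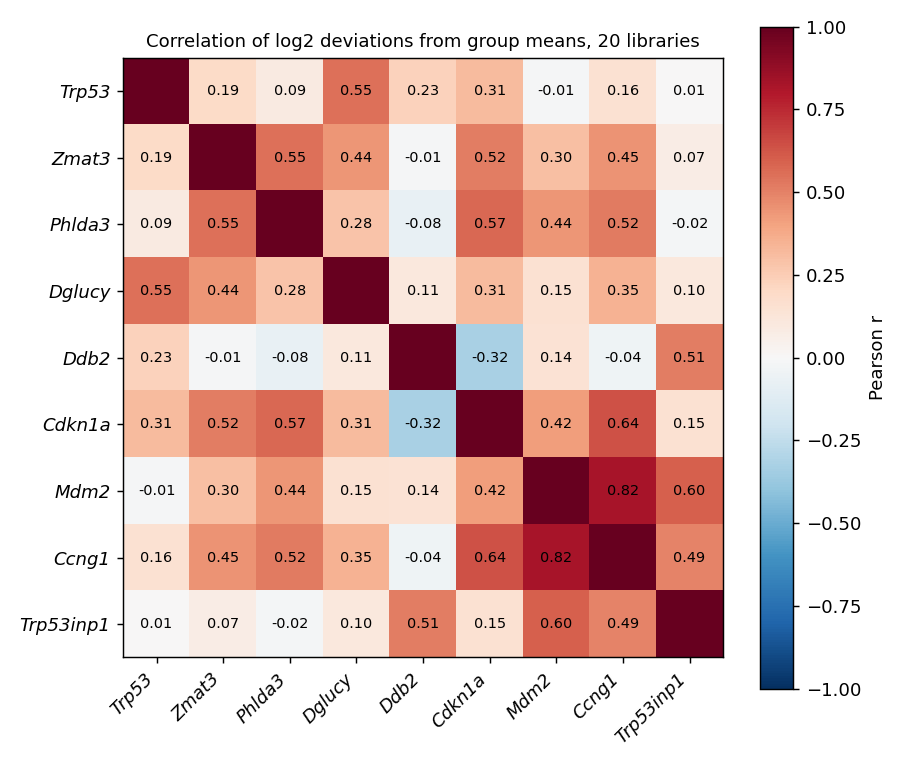
Pearson r between the log2 deviations of the 9 tested genes from their group means, over 20 libraries (colour and number). Pairs among Cdkn1a, Mdm2, Ccng1, Phlda3 and Zmat3 have r between 0.30 and 0.82. Some pairs outside that set lie in the same range, among them Mdm2 and Trp53inp1 (0.60) and Trp53 and Dglucy (0.55). Ddb2 and Cdkn1a have the lowest value, -0.32.

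Outside all lists, the genes whose level followed the mean standardised profile of the 8 tested targets most closely over the 20 libraries were Rprd1b (r = 0.82), Phospho2 (0.77), Ankrd9 (0.76), Chfr (0.74) and Ap5s1 (0.72). The targets themselves ran from -0.14 for Ddb2 to 0.77 for Phlda3, and Trp53 had 0.12. In deviations from group means the closest genes were Tac2 (0.85), Git2 (0.82), R3hcc1l (0.79), Dvl3 (0.78) and Tapt1 (0.78), beside 0.85 for Ccng1 and 0.26 for Ddb2. The targets enter the profile they are set against, which raises their own values. The genes outside the lists were picked as the highest among all genes tested, a choice that by itself favours high values. Their likeness was not tested.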

How the data were processed

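RNA from 20 sorted CFU-E samples was sequenced as 150-base read pairs, per the labels' protocols. The values are a normalised expression signal in 1 table as the authors deposited it, in which every value divided by a single factor per library (0.940 to 1.10) is a whole multiple of 0.01, the form of scaled TPM. The submitters' processing notes name the builds GRCm38, mm10, GRCh37 and hg19 and the tools TopHat2 2.0.8b, TopHat, RSEM 1.2.4 and Bowtie, without roles. Whether counting used strand is not stated. Read counts are not part of the table, and depth per value is therefore unknown. Sums of the values ran from 924763 to 1085047 per library, and 10364 to 10755 entries reached a value of 1. Library-to-library correlations of log2 values ran from 0.967 to 0.996.

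Symbols and positions came from GENCODE vM21 (GRCm38) by Ensembl ID. Entries reaching 1 in 5 or more libraries were kept. log2(value + 1) was fitted with limma 3.58.1 in R 4.3.3, with 1 mean per group over all 20 libraries and trended, robust moderation. Two-sided p-values were adjusted by Benjamini-Hochberg over the 10890 entries kept, with a threshold of 0.05, for 6 contrasts: each treatment effect, each genotype effect, the averaged genotype effect and the interaction. Eda2r, below the filter, was compared by exact permutation, a test chosen after its values were seen. The fit was tested on simulated data, with changes placed only in genes above a set mean level. Genes as low as Cdkn1a were not among those given a change. Alternatives were other scalings, pseudocounts, filters, moderation, weights per library, a block for the replicate number, Xist or myeloid markers as covariates, the compared groups alone, and libraries left out.

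The members, the pathway and marker lists and the alternatives were chosen with earlier results of these data known. All members are named. From each pathway list, up to 4 called genes with the smallest p are named, and every gene of a count of 5 or fewer. The genes most like the targets are the 5 with the highest Pearson r by each of 2 measures. Figures were drawn with Python 3.11.15 and matplotlib 3.10.9. Splicing was not analysed here.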

Additional observations from a re-analysis of the deposited data

Results flagged for a closer look

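In Mx1-Cre CFU-E after PHZ, library 1 stood apart for Dglucy, with a value of 3.07 against 1.59 to 1.89 in the other 4 libraries. Its gap to the next library exceeded Dixon's critical share of the group's range (0.71 for 5 libraries). Of 40 sets of 5 values examined, 10 genes in 4 groups, this was the only such library, and chance alone flags about 1 set in 20. Without this library, the Dglucy difference between P95H and Mx1-Cre after PHZ was 0.54 on the log2 scale (adjusted p = 0.0152 in limma). The same library also had the highest value of its group for Zmat3, Phlda3, Ddb2, Mdm2, Ccng1 and Eda2r.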

How the results depend on the processing

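The averaged genotype calls of Zmat3, Dglucy, Phlda3 and Ccng1 passed in every alternative in which they could be tested. Those of Cdkn1a and Ddb2 did not, as given with their values. The number of listed genes called was 4 for PHZ in P95H, but 1 with a filter at 5, 2 with the compared groups alone, 1 with the marker covariate, 2 without P95H PBS libraries 4 and 5, and 2 to 4 when 1 library was left out (2 without P95H PBS library 4). For PHZ in Mx1-Cre it was 4, but 2 with a filter at 5 and 2 to 5 when 1 library was left out (2 without Mx1-Cre PBS library 4). For P95H under PBS it was 4, but 2 with no filter, 1 with a filter at 5, 1 with the compared groups alone, 2 with the marker covariate, 2 without P95H PBS libraries 4 and 5, and 1 to 5 when 1 library was left out. After PHZ it was 0, but 1 with quantile normalization, a pseudocount of 0.1, the replicate block or without P95H PBS libraries 4 and 5, and 0 to 2 when 1 library was left out. Averaged it was 6, but 3 with a filter at 5, which leaves 5 of the 9 to test, and 5 to 6 when 1 library was left out.

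Of the other pathway genes, the number called for PHZ in P95H was 16, but 3 with the marker covariate, 10 without P95H PBS libraries 4 and 5 and 11 to 16 when 1 library was left out. For PHZ in Mx1-Cre it was 18, but 11 with the marker covariate and 11 to 19 when 1 library was left out (11 without Mx1-Cre PHZ library 3). Under PBS it was 0, but 2 with library weights and 0 to 1 when 1 library was left out. After PHZ it was 0, but 2 with TMM factors, 1 with quantile normalization, 1 with a pseudocount of 0.1, 2 without trend and robust moderation, 4 with library weights and 0 to 2 when 1 library was left out. Averaged it was 8, but 5 with quantile normalization, 4 with the authors' factor removed, 3 with the marker covariate, 2 without P95H PBS libraries 4 and 5 and 3 to 7 when 1 library was left out (3 without Mx1-Cre PHZ library 2). Except where a construction names it, the cause was not tested.

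Signs turned only for values that were not called. With the scaling factor of the authors removed, PHZ in P95H gave 0.0481 for Trp53, 0.0871 for Ddb2 and 0.0174 for Mdm2, PHZ in Mx1-Cre gave 0.0013 for Phlda3, and the interaction gave 0.0455 for Ccng1. With quantile normalization, PHZ in P95H gave 0.0106 for Ddb2, PHZ in Mx1-Cre 0.0420 for Phlda3, P95H under PBS 0.0434 for Mdm2, and the interaction 0.0367 for Ccng1. With the marker covariate, PHZ in P95H gave 0.0042 for Trp53, P95H under PBS 0.0359 for Mdm2, and the averaged genotype effect -0.0094 for Trp53inp1. With Xist as a covariate, P95H under PBS gave 0.0127 for Mdm2. With library weights, Trp53inp1 was 0.0671 under PBS and -0.0524 for the interaction. Without P95H PBS libraries 4 and 5, P95H under PBS gave 0.0649 for Mdm2 and 0.0273 for Trp53inp1, and the interaction 0.0259 for Dglucy. When 1 library was left out, the ranges were -0.0604 to 0.0344 (Ddb2, PHZ in P95H), -0.108 to 0.0452 (Phlda3, PHZ in Mx1-Cre), -0.0359 to 0.0536 (Mdm2, under PBS), -0.0947 to 0.0653 (Trp53inp1, under PBS), -0.118 to 0.242 (Trp53inp1, after PHZ), -0.0783 to 0.102 (Trp53inp1, averaged), -0.0607 to 0.0209 (Ccng1, interaction) and -0.0800 to 0.280 (Trp53inp1, interaction).

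The split of all calls moved with the scaling. For PHZ in P95H, 1371 genes were higher and 1923 lower, against 2584 and 1108 once the factor was removed. For PHZ in Mx1-Cre, 1856 were higher and 1618 lower, against 2237 and 1216. For the averaged genotype effect, 290 were higher and 858 lower, against 394 and 406 with quantile normalization and 333 and 448 with the factor removed. Libraries with the same replicate number did not consistently deviate together (r between -0.31 and 0.44, and 4 of 20 libraries correlated best with their own number). No pairing by number was seen, though this check could miss a weak one. The replicate block lost Ddb2 under PBS (adjusted p = 0.0603 in limma) and added Dglucy after PHZ (adjusted p = 0.0436). The unknown depth limits the low genes most, Eda2r and Cdkn1a among them.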
